A study of Mus musculus with 3 samples.

Results

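CD8 T cells with RNA of both Tcf7 and Ccr7 were compared between a tumour-draining lymph node and a memory library, after dividing and interferon-responding cells had been set aside. The members were chosen by measured values. Barcodes were taken if they held 500 genes or more and no more than 10% mitochondrial counts, and a cell was kept if it held at least 1 UMI (unique molecular identifier, 1 counted RNA molecule) of Tcf7 and at least 1 of Ccr7. It also had to hold no UMI of Mki67, Top2a or Birc5, which mark division, and fewer than 3 of the 6 interferon genes Ifit1, Ifit3, Ifit3b, Rsad2, Usp18 and Mx1. The rule kept 3109 of 6265 filtered node cells and 2292 of 7003 filtered memory cells, 5401 of 13268 in all. They are called matched cells here because both sides passed the same rule.

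The cells were P14 cells, mouse CD8 T cells whose transgenic receptor recognises GP33, a peptide from lymphocytic choriomeningitis virus (LCMV), on H-2Db, and the labels give strain C57BL/6 and genotype WT for all libraries. For the node library (TdLN), naive P14 cells from TCF-1-GFP reporter mice were given to mice 8 days after B16.Gp, a melanoma line made to carry the viral glycoprotein, and CD45.1+ CD44+ CD8 T cells were sorted on day 16 after transfer. A blood library (PBMC) came from the same model, day and gate. Its 1782 cells under the rule are given beside the others for reference. The memory library came from day 200 after an acute LCMV infection and was sorted for CD45.1, CD44 and CD127, the IL-7 receptor chain, among other markers, and against KLRG1. Its tissue, and the number of mice behind any library, are not stated. Each group is 1 library, so no test between them is possible. Tissue, day, infection or tumour, gate and preparation cannot be told apart. Values are CPM, a gene's UMIs per 1000000 UMIs of the summed matched cells. Their 95% intervals, in parentheses, cover counting error only: exact Poisson for levels, exact conditional binomial for ratios and Clopper-Pearson for shares.

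TCF-1, the product of Tcf7, is a transcription factor of naive, memory and stem-like CD8 T cells, which can renew themselves and give rise to effector cells. CCR7 is the chemokine receptor that brings T cells into lymph nodes. Cells with both are therefore often grouped as central-memory-like or naive-like, although the pair alone does not separate a rested memory cell from a naive cell or from a cell that met antigen days before.

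The share of filtered cells kept was 49.6% (48.4–50.9) in TdLN, 32.7% (31.6–33.8) in memory and 31.5% (30.3–32.8) in PBMC. Before cycling and interferon cells were removed, both genes were detected in 66.8% of TdLN cells and 35.2% of memory cells. The division genes removed 730 TdLN and 118 memory cells, and the interferon genes a further 345 and 58. Because the rule used these counts, the shares are a description. Close to the limits, 261 matched TdLN cells and 517 matched memory cells held exactly 1 UMI of each gene. Just outside, 927 TdLN and 2711 memory cells had Tcf7 but no Ccr7, and 411 and 512 had Ccr7 but no Tcf7. Among matched cells 348 in TdLN and 221 in memory had 2 of the 6 interferon genes, and 149 and 37 cells were left out with 3.

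The matched cells held 32496833 UMIs in TdLN and 25129027 in memory, with medians of 9718 and 10568.5 UMIs and of 2264 and 2285 genes a cell. A count of 0 in the sum allows up to 0.0923 CPM in TdLN and 0.119 CPM in memory (3 counts). Ribosomal protein genes took 45.2% and 44.0% of counts and mitochondrial genes 5.40% and 4.96%. Gm42418, a predicted gene that lies over ribosomal RNA sequence, took 0.0808% of TdLN, 3.64% of memory and 2.32% of PBMC counts, and Lars2, described below, differed the same way. Only 1 cell barcode was shared between the matched cells of TdLN and memory. At least 1 Cd8a or Cd8b1 UMI was found in 99.7% of TdLN and 99.9% of memory matched cells. Summed over 8 CD8 T cell markers, the level was 6042 CPM in TdLN against 4892 CPM in memory.

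RNA of genes that mark other cells was also present. Summed over 9 B cell markers, the level was 278 CPM in TdLN, 32.9 CPM in memory and 151 CPM in PBMC, and 23.5% of TdLN matched cells had UMIs of 2 or more of these markers against 1.003% of memory cells. Ighm, the IgM heavy chain, made up most of it with 204 CPM in TdLN against 28.1 CPM in memory. Cd79a, which is more restricted to B cells, stood at 5.51 CPM and 0.0796 CPM, and Ms4a1 and Pax5 were at 0 in memory but not in TdLN. Over 13 macrophage, monocyte and dendritic markers the sums were 41.7 and 21.9 CPM, with Flt3 and Siglech at 0 in both. Over 5 neutrophil markers they were 0.0923 and 0.159 CPM. Melanoma markers summed to 0.677 and 1.03 CPM, with Tyr, Dct and Tyrp1 at 0 in both. A stricter setting kept cells with CD3 and CD8 UMIs and without UMIs of Cd4, myeloid and some B genes. It left 2417 and 2185 cells, in which 121 genes were 2-fold higher and 93 lower, against 120 and 91 for all matched cells. Ighm cannot be among the B genes used, because 81.4% of TdLN matched cells held an Ighm UMI at full depth. The setting thus did not exclude cells with Ighm RNA, and their part in these numbers was not tested.

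The genes of the rule themselves still differed in level. Tcf7 stood at 301 CPM in TdLN, 215.8 CPM in memory and 289 CPM in PBMC, 1.39-fold (1.35–1.44) higher in TdLN than in memory. Ccr7 stood at 242.8, 148.5 and 340.9 CPM, 1.64-fold (1.57–1.70) higher in TdLN than in memory. Exactly 1 Ccr7 UMI was held by 62.6% of memory and 33.7% of TdLN matched cells, so memory cells more often entered at the lower limit.

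In matched cells 4516 genes reached 20 CPM on 1 side or both. Of these, 120 (2.66%) were higher in TdLN by 2-fold or more and 91 (2.02%) were lower by 2-fold or more. The median log2 ratio of all of them was 0.12. With edgeR's TMM scaling, which lowers every log2 ratio by 0.07, the split was 103 higher and 115 lower. Over all filtered cells, of which the matched cells are a part, 196 (4.22%) of 4647 genes were 2-fold higher and 88 (1.89%) lower, with a median of 0.17. The number of lower genes was thus similar with and without the whole rule, and the number of higher genes was smaller after it. The rule also removed cycling and interferon cells. With those cells kept, the number of higher genes was not smaller than over all filtered cells, as given in the last section. Among the 12 highest and 12 lowest genes below, Dapl1 had a log2 ratio of 3.49 in matched cells and 3.84 over all filtered cells, Ccl5 -4.27 and -4.07, and S100a4 -4.64 and -3.21.

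**Figure D1:**
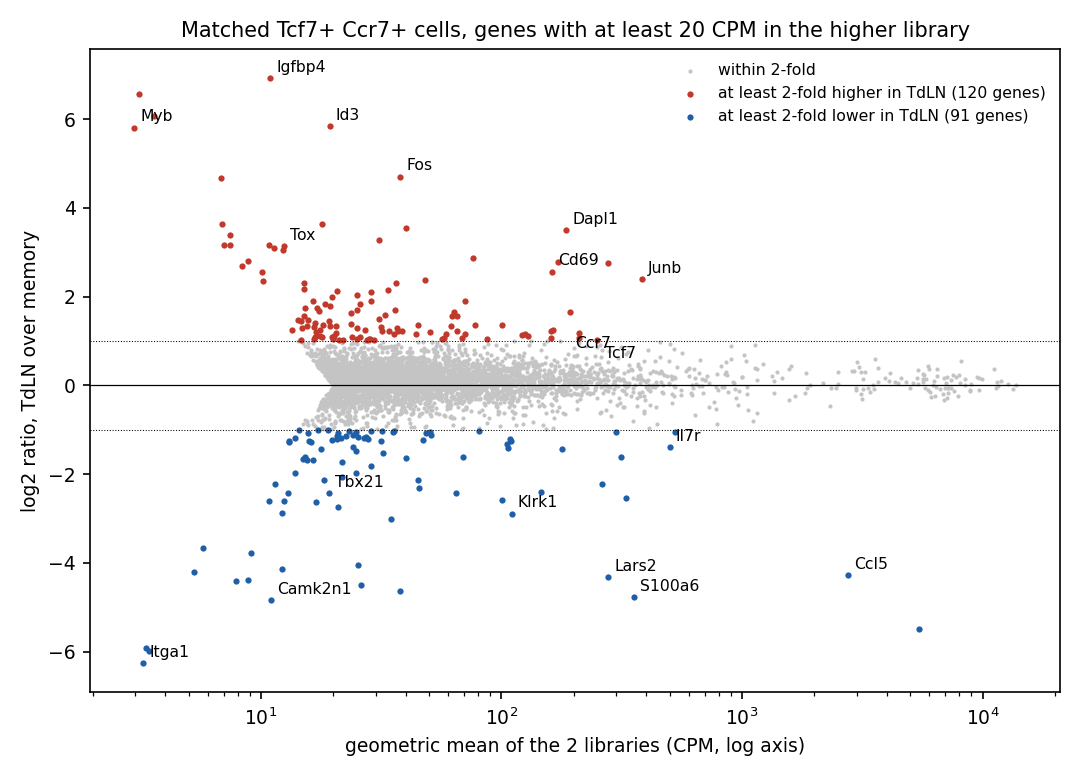
Each point is a gene that reached 20 CPM on either side, with the geometric mean CPM of TdLN and memory on a log x axis and the log2 ratio of TdLN over memory on the y axis, both in matched cells. Dotted lines mark 2-fold; most genes lie between them, while Igfbp4, Id3 and Fos lie far above and Ccl5, S100a6 and Camk2n1 far below.

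Genes outside the rule were ranked by ratio among those with at least 50 CPM on either side, without predicted, ribosomal, mitochondrial and receptor segment genes, and the 12 highest and 12 lowest are described first. Below 50 CPM some listed genes differed by as much, such as Ramp1, Itga1, Hspa1b and Anxa1, described with their lists. Igfbp4 (chromosome 11, 99041244 to 99054392 in GRCm38, plus strand) encodes a binding protein of insulin-like growth factors and is RNA typical of naive T cells. It stood at 120.1 CPM (116.3–123.9) in TdLN, 0.995 CPM (0.644–1.47) in memory and 91.5 CPM in PBMC, 121-fold (81.6–187) higher in TdLN than in memory. Both tumour-model libraries were high and memory stood apart. Id3 (chromosome 4, 136143497 to 136145755, plus strand), an inhibitor of E proteins that is used by stem-like and memory-precursor cells, stood at 146 CPM in TdLN, 2.55 CPM in memory and 20.5 CPM in PBMC. The TdLN level was 57.3-fold (44.8–74.5) that of memory, and PBMC lay between. Dapl1, another gene of naive T cells, stood at 624 CPM in TdLN, 55.5 CPM in memory and 512 CPM in PBMC, 11.3-fold (10.7–11.9) higher in TdLN than in memory. Tmem108, a membrane protein gene, was at 63.2, 5.09 and 68.7 CPM, a 12.4-fold (10.4–14.9) difference. Ifi27l2a, an interferon-induced gene that the rule did not use, was at 718, 106 and 831 CPM, 6.75-fold (6.48–7.02) higher in TdLN than in memory. For Dapl1, Tmem108 and Ifi27l2a the PBMC level was close to the TdLN level.

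The other 7 of the 12 highest genes are induced within minutes to hours of a stimulus. Fos (chromosome 12, 85473890 to 85477273, plus strand), a subunit of the AP-1 transcription factor, stood at 194 CPM in TdLN, 7.44 CPM in memory and 36.7 CPM in PBMC, 26.0-fold (22.5–30.3) higher in TdLN than in memory. Junb, another AP-1 subunit, was at 882, 167 and 321 CPM, 5.28-fold (5.12–5.46) higher. TdLN was the highest of the 3 libraries for both. Tnfaip3, which encodes the NF-kappaB inhibitor A20, stood at 138, 11.7 and 74.5 CPM, 11.7-fold (10.4–13.2) higher in TdLN than in memory. The dual-specificity phosphatase genes Dusp1 and Dusp2, which switch off MAP kinases, were 9.72-fold (8.54–11.1) and 6.91-fold (6.56–7.27) higher. Dusp2 stood at 450 CPM in TdLN, 65.2 CPM in memory and 94.8 CPM in PBMC. Cd69, which holds T cells in tissue by opposing the egress receptor S1PR1 and is induced by receptor signals, was at 396, 66.9 and 205 CPM, 5.92-fold (5.62–6.23) higher. Ppp1r15a, which encodes the stress-response phosphatase subunit GADD34, was at 110, 21.2 and 76.6 CPM, 5.19-fold (4.74–5.70) higher. These genes can also be induced while cells are being taken out of a tissue. The day and gate of collection differed between TdLN and memory, and the tissue of memory is not stated. The part of collection in these values was not tested.

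Windows before the starts of 4 fast-induced genes are shown. Of these genes 3, Dusp1, Ppp1r15a and Tnfaip3, were among the 12 highest, while the fourth, Ier3, was among the 12 lowest. Each is the 250 bases before a RefSeq start (build GRCm38.p6), 5′ to 3′ on the gene's strand. Capitals mark the cyclic AMP response element (CRE), TGACGTCA, in Dusp1 (chr17:26508473-26508722, minus strand) and Ppp1r15a (chr7:45526269-45526518, minus strand). In Tnfaip3 (chr10:19015411-19015660, minus strand) and Ier3 (chr17:35821463-35821712, plus strand) they mark the NF-kappaB consensus.
Dusp1: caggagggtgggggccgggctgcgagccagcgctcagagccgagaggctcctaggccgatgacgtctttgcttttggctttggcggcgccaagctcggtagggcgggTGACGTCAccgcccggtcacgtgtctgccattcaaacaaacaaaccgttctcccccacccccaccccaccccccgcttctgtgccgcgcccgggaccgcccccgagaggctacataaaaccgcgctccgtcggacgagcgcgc
Ppp1r15a: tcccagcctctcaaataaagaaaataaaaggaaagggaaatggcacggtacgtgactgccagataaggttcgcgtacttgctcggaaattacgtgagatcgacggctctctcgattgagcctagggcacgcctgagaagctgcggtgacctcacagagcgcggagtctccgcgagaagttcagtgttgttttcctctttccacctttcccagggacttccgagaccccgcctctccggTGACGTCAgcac
Tnfaip3: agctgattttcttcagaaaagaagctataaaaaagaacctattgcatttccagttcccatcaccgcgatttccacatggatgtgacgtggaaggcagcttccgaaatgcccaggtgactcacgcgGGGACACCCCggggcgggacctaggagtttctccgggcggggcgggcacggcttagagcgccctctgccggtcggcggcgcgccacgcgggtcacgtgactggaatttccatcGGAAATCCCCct
Ier3: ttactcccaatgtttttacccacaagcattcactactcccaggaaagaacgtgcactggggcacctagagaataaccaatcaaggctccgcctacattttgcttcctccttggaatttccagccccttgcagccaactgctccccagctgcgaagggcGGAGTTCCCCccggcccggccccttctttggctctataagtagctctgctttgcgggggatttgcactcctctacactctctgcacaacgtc

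The CRE lies at bases 108 to 115 of the Dusp1 window and at bases 239 to 246 of the Ppp1r15a window. The NF-kappaB consensus lies at bases 126 to 135 and 239 to 248 of the Tnfaip3 window and at bases 159 to 168 of the Ier3 window. Every window printed holds such a match, so the set does not stand for all fast-induced genes. Fos, Dusp2 and Junb, also among the 12 highest, had windows that are not printed. That of Fos held 1 NF-kappaB match, and those of Dusp2 and Junb held neither this nor the CRE. Another window of Tnfaip3 (chr10:19011964-19012213) held no match of any motif searched. Both strands were searched, in 32851 windows of this length, and the CRE was found in 1.55%, the NF-kappaB consensus in 9.55% and the AP-1 site TGANTCA in 6.75% of them. Windows were found for 77 of 97 named genes outside the rule that reached 20 CPM. Among 20 of these that were 2-fold higher in TdLN, 2 genes had the CRE, 3 the NF-kappaB consensus and 1 the AP-1 site. Among 24 that were 2-fold lower, 0, 5 and 0 did. A gene was counted if any of its windows held the match, and some genes had several windows. The shares above are per window, so the 2 are not in the same unit. The matches describe these letters in these windows only.

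Among the 12 genes with the lowest ratios, Ccl5 had the highest memory level. Ccl5 (chromosome 11, 83525778 to 83530518, minus strand), the chemokine RANTES that memory CD8 T cells store as ready RNA, stood at 625 CPM (617–634) in TdLN, 12071 CPM in memory and 2640 CPM in PBMC. It was 19.3-fold (19.0–19.6) lower in TdLN than in memory. S100a6 (chromosome 3, 90612882 to 90624181, plus strand), a calcium-binding protein gene, stood at 67.9, 1849 and 185 CPM, 27.2-fold (26.1–28.4) lower in TdLN. S100a4 from the same family was at 7.57, 189 and 39.9 CPM, 24.9-fold (21.9–28.5) lower. In all 3 genes memory was the highest library, PBMC lay between and TdLN was the lowest.

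Camk2n1, an inhibitor of the kinase CaMKII, was at 2.06 CPM in TdLN, 58.6 CPM in memory and 4.48 CPM in PBMC, 28.4-fold (22.2–36.9) lower in TdLN than in memory. Ccr2, a receptor for inflammatory chemokines, was 17.5-fold (14.2–21.8) lower, at 2.92 against 51.1 CPM. The receptor genes of the NKG2 family followed the same direction. Klrk1, which encodes the activating receptor NKG2D, was at 40.5 CPM in TdLN, 300.1 CPM in memory and 44.4 CPM in PBMC, 7.42-fold (6.99–7.87) lower in TdLN. Klrc1, which encodes the inhibitory receptor NKG2A, was at 12.2, 98.01 and 31.1 CPM, 8.003-fold (7.196–8.919) lower. Il18r1, a chain of the IL-18 receptor, was at 41.0, 246 and 69.3 CPM, 6.01-fold (5.66–6.38) lower. Ier3, an immediate-early gene, was at 8.09, 54.2 and 6.90 CPM, 6.70-fold (5.87–7.68) lower, against the direction of Fos, Dusp1 and Tnfaip3.

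The other 3 of the 12 lowest genes are Lars2, which encodes the mitochondrial leucyl-tRNA synthetase, and the histone genes Hist1h4d and Hist1h1e. Lars2 was at 62.1 CPM in TdLN, 1242 CPM in memory and 754 CPM in PBMC, and its log2 ratio of TdLN over memory was -4.32. Gm42418 was 45.1-fold lower in TdLN in the same cells, and its part in the Lars2 value was not tested. Hist1h4d was 22.6-fold (19.4–26.4) and Hist1h1e 16.6-fold (14.4–19.2) lower. Histone genes of this cluster are near-identical copies, most of whose RNA lacks a poly(A) tail, so a 3′ count of 1 copy is uncertain.

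**Figure D2:**
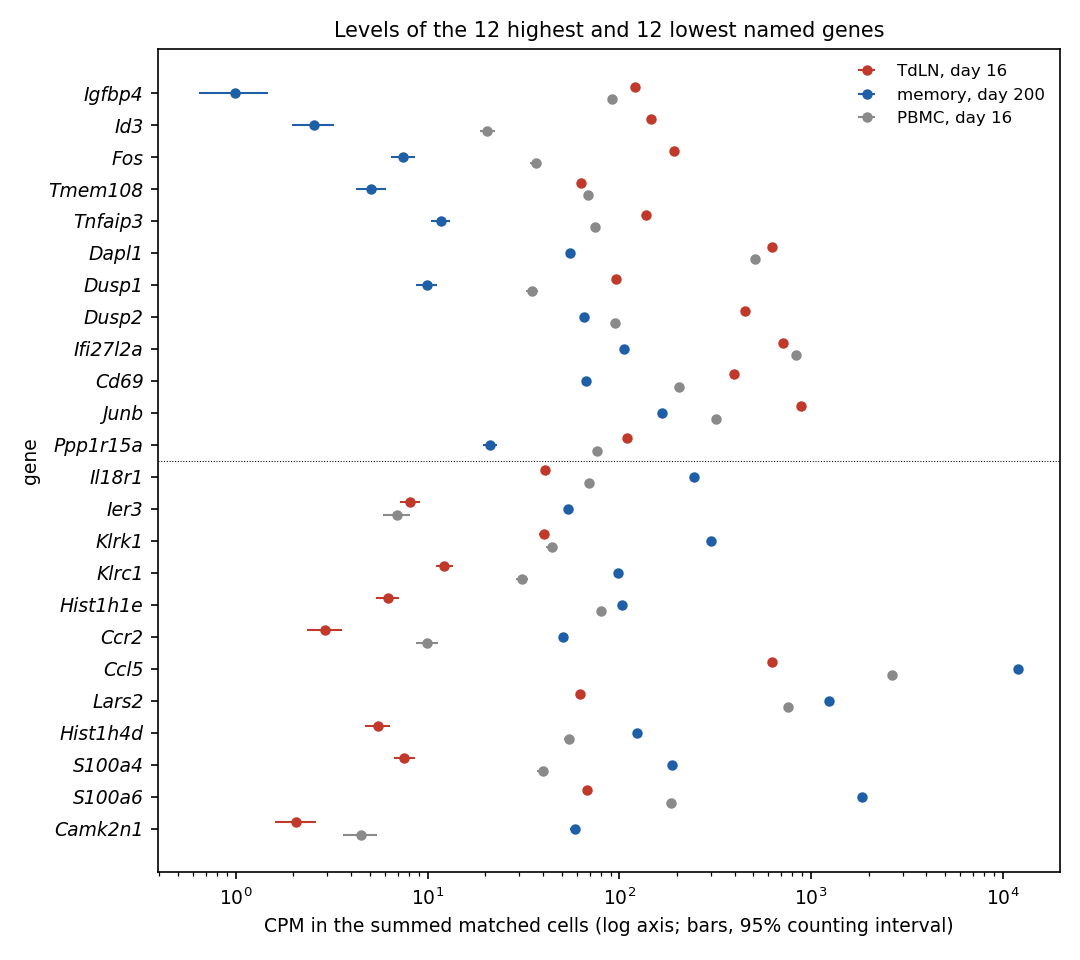
CPM on a log axis for the 12 genes with the highest and the 12 with the lowest ratio of TdLN over memory, in matched cells of TdLN, memory and PBMC, with 95% counting intervals as bars. PBMC lies near TdLN for Igfbp4, Dapl1, Tmem108 and Klrk1, nearer to memory for Dusp2 and Lars2, and between them for Id3 and Ccl5.

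To compare shares of cells with a UMI at equal depth, each cell was thinned to 4200 UMIs, which left out 11 TdLN and 26 memory cells. Of the 12 genes with the lowest ratios, 5 were then found in most memory cells and 7 in a minority. Ccl5 was then detected in 99.9% (99.61–99.97) of memory and 29.3% (27.7–31.0) of TdLN matched cells. Before thinning every memory matched cell and 41.2% of the TdLN cells had it. The median memory cell held 49.5 Ccl5 UMIs, and 10% of memory cells held 31 or fewer, whereas 70.7% of TdLN cells held none and 0.710% reached the memory median. S100a6 was detected in 97.8% (97.1–98.4) of memory and 10.4% (9.34–11.52) of TdLN cells, with medians of 7 and 0 UMIs. The 2 distributions hardly overlapped for Ccl5. Klrk1 was detected in 67.5% (65.5–69.4) of memory and 8.81% (7.84–9.87) of TdLN cells, and Il18r1 in 60.9% and 14.6%. Lars2, the fifth gene found in most memory cells, was detected in 98.3% and 22.9%. The other 7 ranged from 18.0% of memory cells for Ccr2 and 18.7% for Ier3 to 39.9% for Hist1h4d. Camk2n1 was detected in 22.5% of memory and 0.839% of TdLN cells, and S100a4 in 36.5% and 1.58%.

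In the other direction Dapl1 was detected in 74.0% (72.4–75.6) of TdLN and 12.4% (11.1–13.9) of memory cells, with medians of 2 and 0 UMIs. Junb was detected in 88.6% and 47.6%, with medians of 3 and 0 UMIs, and Cd69 in 69.8% and 21.98%. Fos was detected in 43.4% (41.7–45.2) against 3.05% (2.38–3.84), Id3 in 34.7% (33.0–36.4) against 1.06% (0.680–1.57) and Igfbp4 in 28.6% (27.0–30.3) against 0.309% (0.124–0.635). Dapl1, Junb and Cd69 were thus found in most TdLN matched cells, and Igfbp4 and Id3 in a minority. The unthinned shares of Igfbp4 were 44.4% and 0.480%, and those of Id3 55.7% and 2.27%.

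Free RNA in the droplets was gauged in 26 thinned TdLN cells with B or myeloid markers and no CD3 or CD8 UMI, taken from 95 such cells with a median of 2920 UMIs. There Igfbp4, Klrk1, Il18r1 and Tox were found in 0 of 26 cells, which allows a share of up to 13.2%. Dapl1 was found in 7.69% and Ccl5 in 3.85% of them. Fos was found in 53.8%, Junb in 76.9%, Cd69 in 57.7% and Id3 in 26.9%, but B and myeloid cells can make these RNAs themselves. Tmem108 was found in 26.9% (11.6–47.8), against 22.6% of TdLN matched cells. Ifi27l2a was found in 46.2%, Dusp2 in 42.3%, Ppp1r15a in 38.5%, Dusp1 in 26.9% and Tnfaip3 in 23.1% of the 26 marker cells. The source of these RNAs in the marker cells was not tested. Ighm, which B cells make themselves, was found in 88.5% of these cells and in 54.7% of TdLN, 10.2% of memory and 40.3% of PBMC matched cells. No such marker cells were taken from memory or PBMC. Whether the Ighm UMIs of matched cells are free RNA was not tested.

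**Figure D3:**
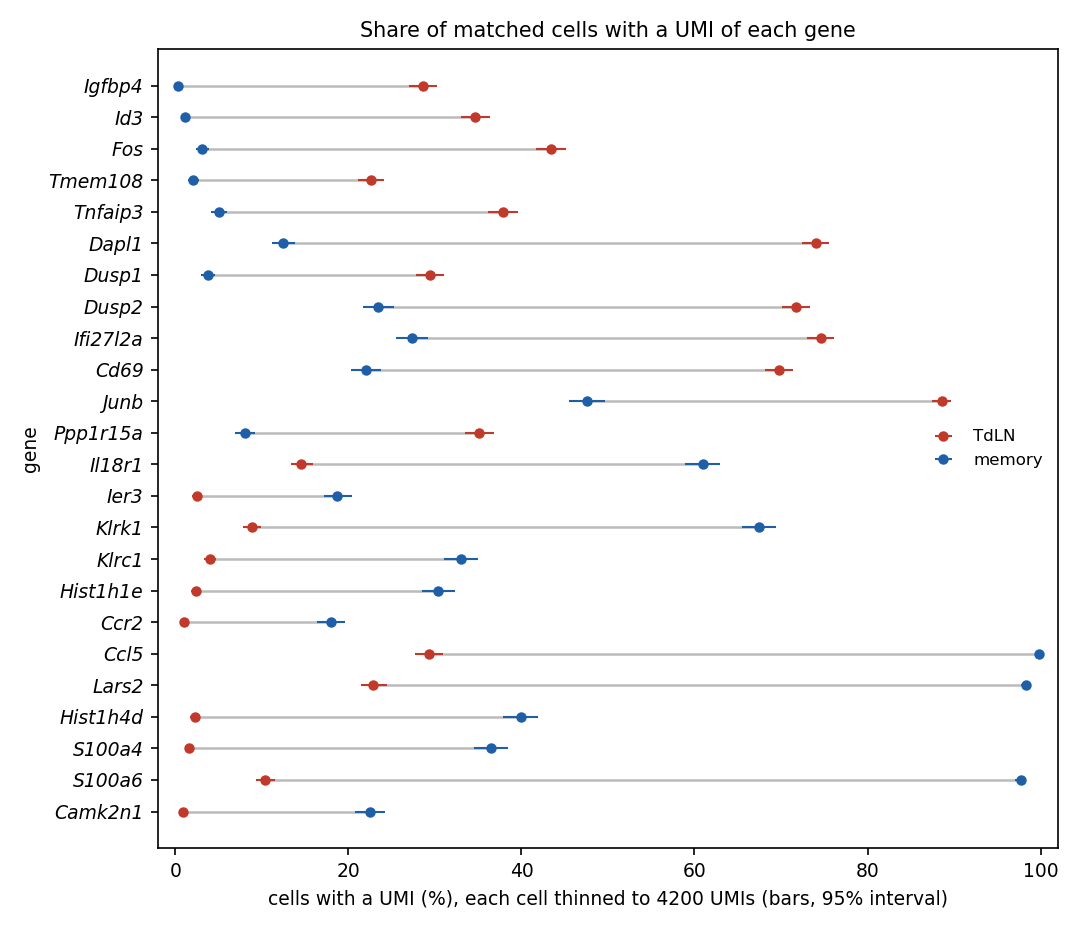
Share of matched cells with at least 1 UMI of each of the 24 genes after thinning to 4200 UMIs a cell, in TdLN and memory, with 95% Clopper-Pearson intervals. Ccl5, S100a6 and Lars2 are found in nearly every memory cell, whereas Igfbp4 and Id3 are found in 28.6% and 34.7% of TdLN cells.

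Within the TdLN matched cells S100a6 and Ccl5 occurred together. S100a6 was found in 24.9% (22.1–27.8) of cells with a Ccl5 UMI and in 4.39% (3.57–5.33) of cells without one. Cells with Igfbp4 had Ccl5 in 18.9% (16.4–21.7), against 33.5% (31.5–35.5) of cells without Igfbp4. Id3 was found in 29.7% (26.7–32.8) of cells with Igfbp4 and 36.7% (34.7–38.7) of those without, so Id3 was not more frequent in cells with Igfbp4. Dusp1 was more frequent in cells with Fos: it was found in 34.9% (32.3–37.5) of cells with Fos and in 25.2% (23.1–27.3) of the rest. Dapl1 was found in 66.8% of TdLN cells with Ccl5 and in 77.0% of cells without it. All of these cells come from 1 library and are not replicates.

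The ratios were then followed across the cells' own Tcf7 and Ccr7 counts, with cycling and interferon cells left out throughout. In cells with neither gene Ccl5 stood at 2528 CPM in TdLN against 13152.5 CPM in memory. In cells with Tcf7 and 1, 2, or 3 or more UMIs of Ccr7 it stood at 866, 571 and 481 CPM in TdLN, but at 12113, 12028 and 11979 CPM in memory. The difference was therefore 5.203-fold in cells with neither gene and 13.98-, 21.1- and 24.9-fold in these 3 classes. It reached 27.8-fold in the 700 TdLN and 154 memory cells with at least 3 UMIs of each gene. S100a6 went from 7.44-fold in cells with neither gene to 34.3-fold in cells with Tcf7 and 2 Ccr7 UMIs. It was 30.1-fold in cells with Tcf7 and at least 3 Ccr7 UMIs, again with memory levels between 1693 and 2065 CPM. The difference in Ccl5 and S100a6 was thus wider in cells with 2 or more Ccr7 UMIs than with 1. Their level was lower in such TdLN cells, while that in memory moved little.

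Genes higher in TdLN did not move in 1 direction across these classes. Id3 was 46.7-fold higher in cells with neither gene and 48.5-fold higher in cells with Tcf7 and at least 3 Ccr7 UMIs. Cd69 was 6.06-fold and 4.70-fold higher, and Dapl1 13.2-fold and 13.1-fold. Lef1, a partner of TCF-1, was 1.71-fold higher in cells with neither gene and 2.15-fold in the highest Ccr7 class. Tmem108 widened from 5.72-fold in cells with neither gene to 20.02-fold in the highest Ccr7 class, and Tox from 4.68-fold to 8.26-fold. Dusp1 narrowed from 22.4-fold to 10.2-fold, Fos from 33.8-fold to 22.1-fold and Tnfaip3 from 13.4-fold to 8.76-fold. Among cells with Tcf7 and 1, 2, or 3 or more Ccr7 UMIs, most of these did not move step by step. Tmem108 was 12.3-, 8.35- and 20.02-fold higher there, Tox 7.93-, 11.3- and 8.26-fold, and Dusp1 10.3-, 8.96- and 10.2-fold. Fos was 27.2-, 28.9- and 22.1-fold higher, whereas Tnfaip3 narrowed at each step, at 12.6-, 11.2- and 8.76-fold. Igfbp4 narrowed most among the 12 highest genes, from 230-fold in cells with neither gene to 38.8-fold in the highest Ccr7 class. In cells with Tcf7 and 1, 2, or 3 or more Ccr7 UMIs its memory level was 0.593, 0.508 and 3.21 CPM. Its ratio there was 186-, 244- and 38.8-fold, so it did not narrow step by step. With at least 3 of each gene, a part of the last class, the values were 6.34 CPM and 17.7-fold. Few memory cells carry these values: 0.480% of memory matched cells held an Igfbp4 UMI. The cells with neither gene can include TdLN cells that are not T cells, and the classes also differ in depth, with medians from 6107.5 to 10857.5 UMIs in TdLN and from 8777 to 11525 in memory.

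**Figure D4:**
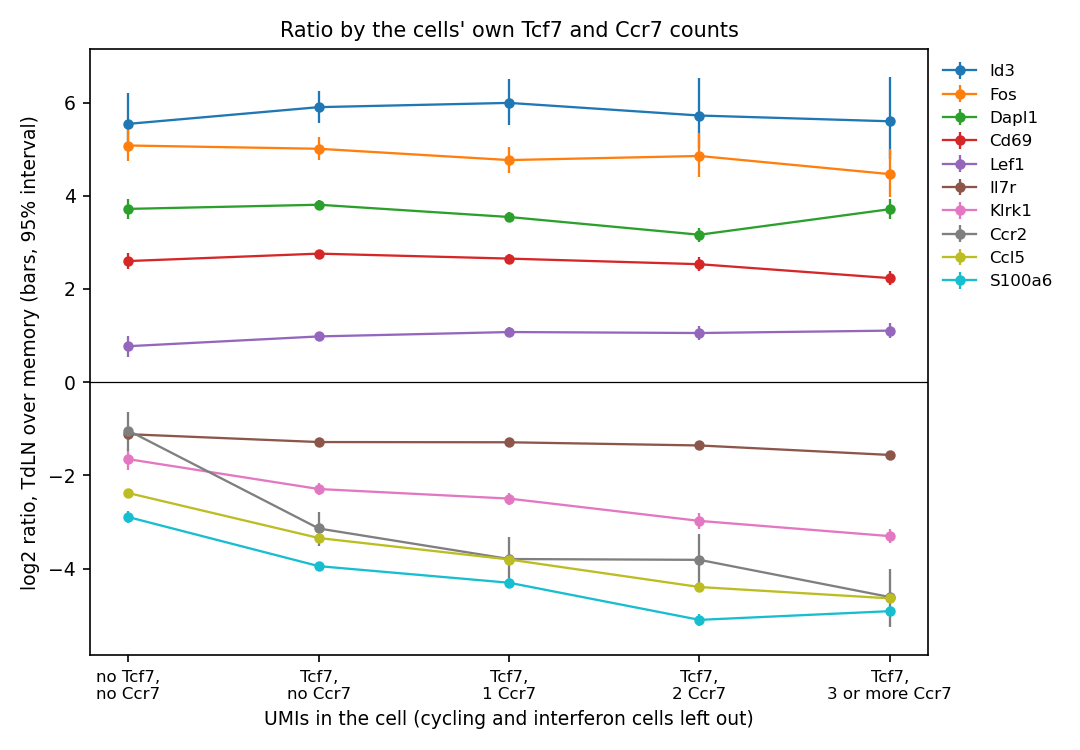
Log2 ratio of TdLN over memory (y axis) for 10 genes in cells grouped by their own Tcf7 and Ccr7 UMIs (x axis), with 95% counting intervals as bars. The lines of Ccl5, Klrk1 and Ccr2 go down from left to right, and that of S100a6 goes down until the last class, where it rises slightly. Those of Id3, Dapl1, Cd69 and Lef1 stay nearly level.

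Gene lists were then counted against the background of 2.66% of genes higher and 2.02% lower. Some genes, such as Rgs1, Cd5 and Klrc1, belong to more than 1 list, so the counts of different lists are not separate results. Of 18 measured members of a naive T cell list, 7 were higher in TdLN by 2-fold or more and none was lower, with a median log2 ratio of 0.75 against 0.12 for all genes. They were Igfbp4, Dapl1, Ramp1, Itgae, Rapgef4, Actn1 and Lef1. Ramp1, a subunit of the receptor for the neuropeptide CGRP, stood at 30.2 CPM in TdLN against 0.318 CPM in memory, a 94.7-fold (47.9–220) gap. Itgae, which encodes the integrin CD103 and is expressed by naive CD8 T cells as well as by tissue-resident ones, stood at 24.2 and 2.31 CPM. Other naive-cell genes were close to level: Klf2, a regulator of egress and quiescence, stood at 612 and 641 CPM, and Satb1, a chromatin organiser, at 277 and 206 CPM.

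Of 18 measured members of a stem and progenitor list, 9 were 2-fold higher and none lower (median 0.90). Myb, a transcription factor of stem-like CD8 T cells, stood at 22.3 CPM in TdLN, 0.398 CPM in memory and 16.2 CPM in PBMC, 56.1-fold (30.3–117) higher in TdLN than in memory. Tox, a factor of exhausted and stem-like exhausted cells that is also induced by receptor signals, stood at 37.0, 4.18 and 17.0 CPM, 8.85-fold (7.24–10.9) higher. Il6st and Il6ra, the chains of the IL-6 receptor, were 2.14 and 1.29 log2 units higher. Slamf6, a surface receptor used to mark progenitors, stood at 98.7 CPM in TdLN, 38.9 CPM in memory and 102.1 CPM in PBMC, 2.54-fold (2.36–2.73) apart between TdLN and memory. Lef1 was 2.17-fold (2.06–2.27) and Eomes, a T-box factor, 1.46-fold (1.35–1.58) higher. Gpr183, a receptor for oxysterols that guides cells within the node, went the other way with 84.8 CPM in TdLN against 157 CPM in memory.

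Inhibitory receptors were mostly at low levels in these cells, and 4 of 17 found in the table passed 20 CPM. Ctla4 stood at 19.8 CPM in TdLN, 0.915 CPM in memory and 4.75 CPM in PBMC, just under the limit for the counts above. Lag3 was at 7.11 CPM in TdLN and 0 in memory, at least 59.5-fold higher in TdLN (against 3 counts summed over the memory cells). Pdcd1, the gene of PD-1, was at 1.02 and 0.199 CPM, and Havcr2, the gene of TIM-3, at 0 in both. In the other direction Fcgr2b, an inhibitory Fc receptor gene also just under the limit, stood at 0.308 CPM in TdLN, 19.7 CPM in memory and 1.34 CPM in PBMC, 63.9-fold (34.4–134) lower in TdLN than in memory. Of the 4 genes that passed, 1 was 2-fold higher, Cd5, and 1 was 2-fold lower, Klrc1 with a log2 ratio of -3.001. Cd160 stood at 42.6 and 43.4 CPM, and Cd5, which tunes receptor signals, at 83.0 and 39.8 CPM, 2.09-fold (1.94–2.25) higher in TdLN. With TMM scaling Cd5 was under 2-fold.

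Of 6 measured anergy-linked genes, none was 2-fold higher and 1, Nt5e, which encodes the ectoenzyme CD73, was lower, at 9.14 against 29.5 CPM (3.23-fold, 2.82–3.70). Dgka and Dgkz, kinases that remove the second messenger diacylglycerol, were 1.37-fold and 1.35-fold higher. Several listed genes below 20 CPM had UMIs mainly in TdLN. Izumo1r, which encodes the folate receptor FR4, was at 14.1 against 0.279 CPM, Ikzf2, which encodes Helios, at 17.8 against 0.279 CPM, and Cd200 at 5.39 CPM against 0.

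Genes that follow T cell receptor engagement were higher as a group. Of 9 measured members of the receptor response list, 7 were 2-fold higher in TdLN and none lower, with a median log2 ratio of 1.65. Egr1, an early growth response factor, stood at 32.4 CPM in TdLN, 3.62 CPM in memory and 2.20 CPM in PBMC, 8.94-fold (7.21–11.2) higher in TdLN than in memory. Nfkbia, the inhibitor of NF-kappaB, stood at 343 and 109 CPM. Below 20 CPM, the orphan nuclear receptor gene Nr4a1 was at 16.6 CPM in TdLN, 0.239 CPM in memory and 0.986 CPM in PBMC. Egr3 and Irf4 were at 10.3 and 6.62 CPM in TdLN and at 0 in memory, at least 86.1-fold and 55.4-fold higher. Il2ra, the alpha chain of the IL-2 receptor, went the other way and alone among the 11 members below 20 CPM was lower in TdLN, at 0.554 CPM against 4.02 CPM in memory (7.26-fold, 4.37–12.7). For Egr1 and Nr4a1 TdLN was the highest of the 3 libraries, and PBMC was lower than memory for Egr1 but 4.13-fold above it for Nr4a1.

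A list of cytokine signal suppressors and feedback genes had 12 of 22 measured members 2-fold higher and none lower (median 1.24). Dusp6, a phosphatase specific for ERK, was 9.03-fold (6.96–11.9) higher, at 22.3 against 2.47 CPM. Zfp36, an mRNA decay factor, stood at 137 and 36.4 CPM, and Rgs1, a regulator of chemokine receptor signals, at 81.0 and 16.3 CPM. Socs1 was nearly level at 55.4 and 52.1 CPM. The AP-1 and dissociation list had 7 of 20 higher and 2 lower (median 0.84). Jun was at 252 and 106 CPM, whereas Fosb, at 72.6 and 36.7 CPM, and Jund, at 640 and 323 CPM, were just under 2-fold. The 2 lower genes were Ier3 and Hspa1b, a heat shock gene at 0.431 CPM in TdLN, 27.2 CPM in memory and 0.179 CPM in PBMC, 63.2-fold (37.4–116) lower in TdLN. Hspa1b has a near-identical neighbour, Hspa1a, which stood at 0.462 and 14.2 CPM.

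Both Fos and Dusp1 belong to the dissociation list, and the comparison was repeated in matched cells without a UMI of either gene, 653 in TdLN and 1953 in memory. There 100 genes were 2-fold higher and 86 lower, and Junb went from a log2 ratio of 2.40 to 1.80. Of 51 named genes that could be followed, chosen because they were 2-fold apart in all matched cells, 49 were still at least 2-fold apart. Ccl5 was then at a log2 ratio of -4.49 and S100a6 at -4.89, against -4.27 and -4.77 in all matched cells. Dusp2 and Junb, of the dissociation list, stayed more than 2-fold apart, at 2.48 and 1.80. Cells without a Fos or Dusp1 UMI can thus still hold other RNA of this list. The part of dissociation in the differences was not tested.

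Effector and memory genes were lower in TdLN. Of 15 measured members of an effector and memory differentiation list, 8 were 2-fold lower and none higher (median -1.14). Tbx21, which encodes the effector factor T-bet, stood at 8.28 CPM in TdLN, 44.3 CPM in memory and 6.63 CPM in PBMC, 5.35-fold (4.68–6.13) lower in TdLN than in memory. Id2, the inhibitor of E proteins linked to effector cells, stood at 109, 293 and 111 CPM, 2.70-fold (2.59–2.81) lower. Id2 and Id3 thus differed in opposite directions. Rora, a nuclear receptor gene, was 13.6-fold (10.8–17.4) lower. Il7r, the chain sorted for as CD127 in memory only, was 2.61-fold (2.55–2.68) lower, at 309 against 808 CPM. Klrg1, sorted against in memory only, was nevertheless at 3.46 CPM there and at 0.0308 CPM (1 count) in TdLN, 113-fold lower with a counting interval of 19.7 to 4494. With both sides limited to cells with Il7r and without Klrg1 UMIs, 2521 in TdLN and 2199 in memory, 121 genes were higher and 86 lower.

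The cytotoxic list had 4 of 14 measured genes 2-fold lower and none higher (median -0.33). Besides Ccl5 these were Gzmk, Fasl and Gzmm. Gzmk, a granzyme of memory cells, stood at 1.72 CPM in TdLN against 36.3 CPM in memory, 21.1-fold (16.1–28.1) lower. Fasl, the death ligand, was 6.06-fold (5.05–7.31) and Gzmm, another granzyme, 4.99-fold (4.58–5.44) lower. Other granule genes were near level: Nkg7 stood at 977 and 1120.3 CPM and Ctsw at 347 and 333 CPM. Listed genes below 20 CPM in both TdLN and memory differed in both directions. Gzmb was at 4.09 and 15.1 CPM, and Serpinb9 was also lower in TdLN. Gzma, another granzyme gene, went the other way, at 7.57 CPM in TdLN, 0.557 CPM in memory and 65.8 CPM in PBMC. It was 13.6-fold (7.95–25.2) higher in TdLN than in memory. Ccl3 was 6.19-fold (4.10–9.69) higher in TdLN than in memory, and Tnf was also higher. Among NK receptors 3 of 5 were lower (median -2.14), Klrc1, Klrk1 and Klrc2, while Klrd1, which encodes CD94, the partner chain of NKG2A, stood at 290 and 264 CPM. Klrd1 thus did not follow Klrc1.

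Of 15 listed S100, annexin and galectin genes, all measured, 8 were 2-fold lower and none higher (median -1.05). Anxa1, an annexin, was at 0.431 CPM in TdLN against 25.9 CPM in memory, 60.1-fold (35.6–111) lower. Lgals1, a galectin, stood at 122 and 563 CPM, and Ahnak, a large scaffold protein that binds S100 proteins, at 63.3 and 335 CPM. Lgals3, another galectin, was 18.4-fold (13.3–26.0) lower in matched cells, a log2 ratio of -4.20, but -1.33 over all filtered cells. It is a gene of dividing and effector cells as well as of macrophages. With cycling and interferon cells kept, its log2 ratio was -2.83.

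Homing and adhesion genes differed in both directions, with 4 of 22 higher and 5 lower (median -0.37). The 4 higher were Itgae, Cd69, Rgs1 and Rgs2. Itga1, Ccr2, Itga4 and Cxcr6 were among the 5 lower. Itga1, which encodes the collagen-binding integrin CD49a, stood at 0.369 CPM in TdLN, 28.3 CPM in memory and 0.851 CPM in PBMC, 76.5-fold (43.5–149) lower in TdLN than in memory. Itga4, a subunit of the integrin VLA-4, stood at 27.8 and 150 CPM. The egress receptor S1pr1 was at 114 and 153 CPM.

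**Figure D5:**
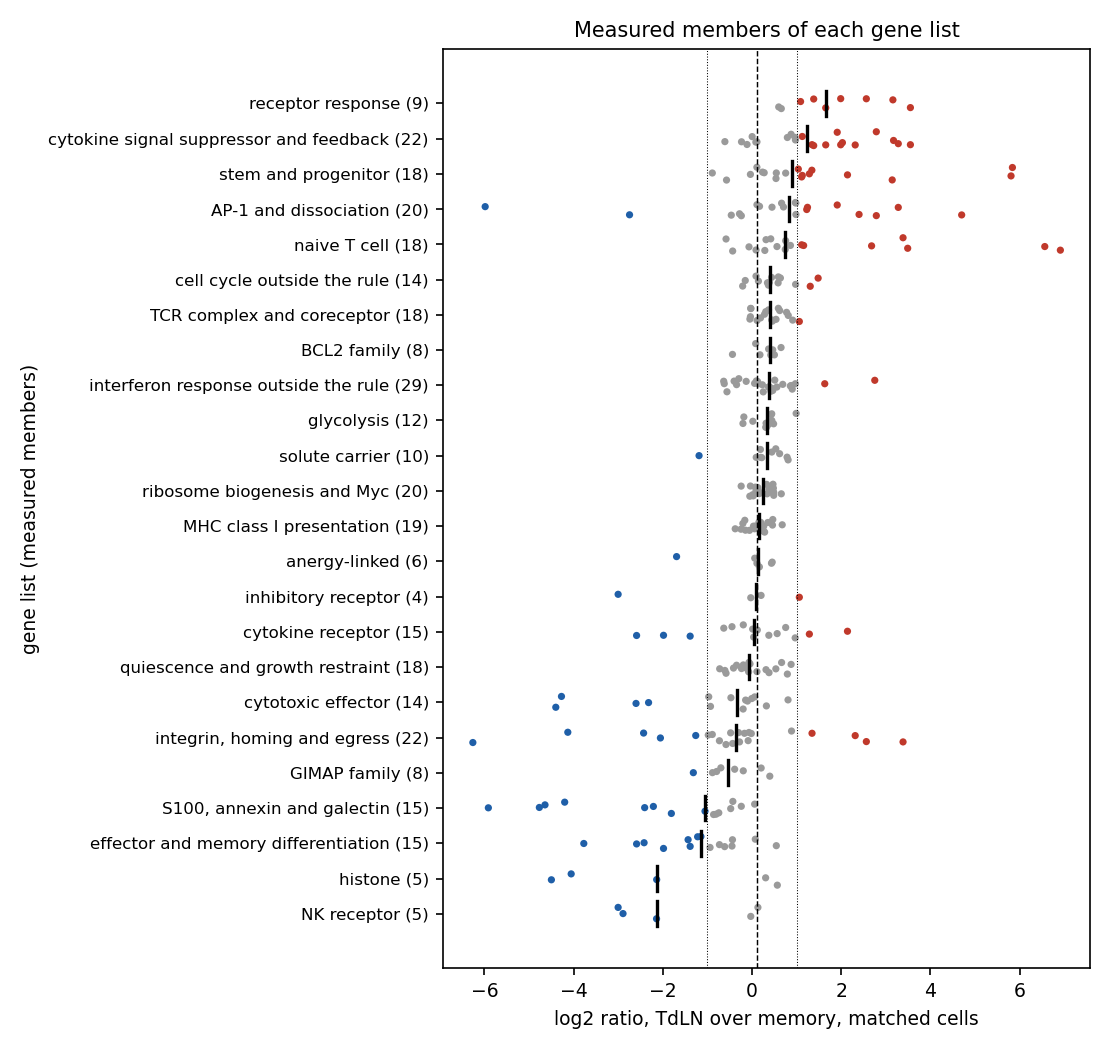
Log2 ratio of TdLN over memory in matched cells for every measured member of 24 gene lists, 1 point a gene, with the number of measured members in parentheses. Black bars are list medians, the dashed line is the median of all genes, 0.12, and dotted lines mark 2-fold; receptor response genes have the highest median, 1.65, and NK receptor and histone genes the lowest, -2.14.

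Division and interferon genes that the rule did not read were closer in matched cells than over all cells. The rule removed cycling and interferon cells, so this follows from the selection and is a description only. Of 14 measured cell cycle genes, 2 were 2-fold higher in TdLN, and their median log2 ratio was 0.41 in matched cells against 1.17 over all filtered cells. Those 2 were Cks2, a subunit of cyclin-dependent kinases, at 49.8 and 20.1 CPM, and Cenpa, the centromeric histone, at 23.8 and 8.52 CPM. Of 29 interferon genes outside the rule, 2 were higher, Ifi27l2a and Rtp4, with a median of 0.37 against 0.51 over all cells. Isg15, a ubiquitin-like modifier, stood at 37.4 and 19.1 CPM. Of 5 measured histone genes 3 were lower.

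Many lists held few or no genes 2-fold apart. None of 18 quiescence and growth restraint genes passed, with a median of -0.07: Btg1 stood at 1215 CPM in TdLN against 661 CPM in memory, and Cdkn1b, the cell cycle inhibitor p27, at 69.1 and 114 CPM. None of 19 MHC class I presentation genes passed (median 0.16). None of 8 BCL2 family genes passed: Bcl2 stood at 260.2 and 352 CPM, and the death-promoting Bcl2l11, which encodes BIM, at 30.5 and 19.4 CPM. None of 12 glycolysis genes passed, although Pkm, pyruvate kinase, came close at 187 and 94.1 CPM. None of 20 ribosome biogenesis genes passed, with Myc at 59.3 and 37.6 CPM. Of 18 genes of the T cell receptor complex and its coreceptors, 1, Cd5, was higher, and Cd8b1 was level at 1034 and 1067 CPM. Among 8 GIMAP genes, small GTPases of lymphocyte survival, Gimap7 was 2.49-fold (2.36–2.62) lower. Of 10 solute carriers only Slc4a7 was lower, and of 15 cytokine receptors 2 were higher and 3 lower.

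The P14 receptor uses the beta chain V segment Trbv13-3. Trbv13-3 stood at 30.7 CPM in TdLN, 72.1 CPM in memory and 39.7 CPM in PBMC, 2.35-fold (2.17–2.54) lower in TdLN than in memory. Shares of segment UMIs are given as a description and are not shares of cells. Of 1117 beta V segment UMIs in TdLN matched cells, 10.7% (8.90–12.6) were of other segments, against 4.68% (3.78–5.73) of 1900 in memory. In the 757 TdLN and 1029 memory cells whose only beta V segment was Trbv13-3, 132 genes were 2-fold higher and 101 lower. Ccl5 was there at a log2 ratio of -4.41 and S100a6 at -4.99.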

How the data were processed

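Single-cell 3′ RNA libraries (10x Genomics) of sorted P14 cells were processed by the authors with Cell Ranger 3.1.0 and mm10, per the submitters' processing notes. Each deposited matrix holds raw UMI counts, whole numbers for every gene in every barcode called as a cell: 7503 TdLN, 8321 memory and 6165 PBMC. Doublets were not removed. Leaving out the 5% of matched cells with most UMIs was 1 of 14 other settings tried, and a further one, cells with Trbv13-3 alone, was added after seeing the data. The members, gene lists and settings were chosen with earlier results of these data known.

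Counts were summed over matched cells and divided by their total. Genes reaching 20 CPM on either side were described at 2-fold, and no p-value was computed. The genes named in the text are the 12 with the highest and the 12 with the lowest ratio that reached 50 CPM, without ribosomal, mitochondrial, predicted, segment, haemoglobin, Xist and Y-linked genes and those of the rule, plus a fixed panel and up to 4 members of each of 24 lists. A few others, such as Ighm, Nr4a1 and Gm42418, were chosen after their values were seen. Some items of the panel and the memory gate are not reported here. Coordinates are from GENCODE M21 (GRCm38, the assembly of mm10) and promoter letters from RefSeq. Software was Python 3.11.15, numpy 2.4.6, scipy 1.17.1, pandas 2.3.3 and, for TMM factors, edgeR 4.0.16. The ratio calculation was tested on simulated data.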

Additional observations from a re-analysis of the deposited data

How the results depend on the processing

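Of 55 named genes at least 2-fold apart, none changed direction under the alternatives that gave each gene a value. Cd5 fell under 2-fold with TMM scaling, at least 2 UMIs of each rule gene, a 5% mitochondrial limit or Trbv13-3 cells alone, Lef1 with cycling and interferon cells kept, and Cks2 and Slc4a7 in cells without Fos and Dusp1 UMIs. The 120 higher and 91 lower genes became 29 and 25 at a minimum of 100 CPM and 430 and 417 at 2 CPM. With totals free of ribosomal protein and mitochondrial genes, which raise every CPM so that more genes pass 20 CPM, 224 genes were higher. With cycling and interferon cells kept, 214 were higher. Over all filtered cells the 196 higher genes became 310 with such totals, 43 at 100 CPM and 718 at 2 CPM. The 88 lower became 133 with TMM, 149 with such totals, 27 at 100 CPM and 387 at 2 CPM. Apart from minimum level and totals, the cause was not tested. The number of genes that reach the minimum can also change with the setting, and it is not given for these other settings. Their counts, here and for the smaller cell sets above, therefore cannot be read as shares. Values that moved by over 1.5 times follow as log2 ratios. Igfbp4, at 6.92, was at 5.73 with at least 2 UMIs of each rule gene and at 10.43 in Trbv13-3 cells. In those cells Ramp1 was at 8.40 and not 6.57, Ccr2 at -5.25 and not -4.13, Ier3 at -2.13 and not -2.74, and Hspa1b at -5.23 and not -5.98. Over all settings Myb, at 5.81, ranged from 5.42 to 8.06 (Trbv13-3 cells), Anxa1, at -5.91, from -7.37 (5% mitochondrial limit) to -4.63 (Trbv13-3 cells), Lgals3, at -4.20, from -5.58 to -2.83, and Gzmk, at -4.40, from -5.28 to -3.53. With cycling and interferon cells kept, S100a6 was at -4.14, S100a4 at -3.43, Hist1h4d at -3.51, Hist1h1e at -2.71, Cenpa at 3.23, Cks2 at 2.23, Hmgn2 at 2.26 and Isg15 at 1.57. Junb was at 1.80 in cells without Fos and Dusp1 UMIs, Fasl at -3.19 with at least 2 UMIs of each rule gene and Egr1 at 2.55 with the rule read on thinned cells. Below 20 CPM Klrg1 ranged from -7.86 to -5.36, Pdcd1 from 1.06 to 3.56 and Gzmb from -3.61 to -0.17. No paired analysis was possible because each group is 1 library and the labels carry no replicate numbers. With 1 library a group, no value here has an error between animals.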
